A study of Mus musculus with 3 samples.

Results

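The Usher syndrome genes are a group in which mutation causes inherited deafness together with retinal degeneration in people. The 8 members described here were Myo7a, Ush1c, Ush1g, Whrn, Cdh23, Pcdh15, Adgrv1 and Clrn1, of 21366 named genes on the array. They were found through the RefSeq accession that the scanner files give for each probe, which matched 16 of 55681 probes. Expression was measured once in the retina of each of 3 genotypes at postnatal day 12, on 1 array each labelled wild-type, Otx2 KI and Crx KO. Otx2 and Crx are related homeodomain transcription factors that act in photoreceptors. KI usually stands for knock-in and KO for knockout. The labels give neither the altered sequence of an allele, nor the site of the knock-in, nor the strain or the number of mice in each sample.

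Usher proteins form complexes in the hair bundles of the inner ear, where cadherin links join neighbouring stereocilia. A motor and several scaffold proteins anchor those links to the actin core. In photoreceptors of various species, Usher proteins have been reported at the base of the outer segment and in the calyceal processes. Other reported sites are the membrane around the connecting cilium and the synapse. Myo7a also acts in the retinal pigment epithelium, where its motor carries melanosomes.

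Of the 8 members, Myo7a was the 1 that stood more than 2-fold below wild-type in both mutant arrays, and it was much lower in Crx KO than in Otx2 KI. Ush1c was higher than wild-type in Crx KO and slightly below it in Otx2 KI, at signals close to background. Pcdh15 and Adgrv1 were below wild-type in Otx2 KI by about 1.5-fold or slightly more. Ush1g, Whrn and Clrn1 lay within 1.5-fold in every comparison, and Cdh23 was not well above background on any of the 3 arrays. Because each genotype has 1 array, no replicate checks a difference and no test was made, so each difference describes these RNA preparations. The error given with a log2 difference is that of the scanner software's error model. It covers the measurement of a spot and not the spread between mice.

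The arrays were alike in quality: of 59305 non-control spots, 63.5% to 67.1% lay well above background and none (0) reached saturation. The labelled genes were read on the same scale. For Crx the scaled signal was 9790 in wild-type against 1062 in Otx2 KI and 7177 in Crx KO, and Otx2 had 40886, 63860 and 62981. Scaled signal is the Cy3 intensity of a probe, brought to the wild-type array's scale. Whether the Crx probe covers the altered part of either allele is not known from the labels, which its signal therefore cannot check. In bulk retina, fewer cells of a type and less RNA per cell cannot be told apart.

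The sequence upstream of the annotated starts is shown for Myo7a and Ush1c, because these were the members past 2-fold in a mutant array and Crx is a DNA-binding factor. The sequences are the 250 bases before each start in RefSeq on GRCm38.p6, which held an entry for 7 of the 8 members, in 8 windows. Searched on both strands were TAATCC and TAAGCC, sequences that Crx and Otx2 can bind, and CACGTG, the palindromic E-box bound by Mitf and Usf factors. Capitals mark a match. The windows run 5′ to 3′ along the minus strand of chr7, at chr7:98119494-98119743 and chr7:98109249-98109498 for the Myo7a starts and at chr7:46238491-46238740 for Ush1c.
Myo7a upstream start: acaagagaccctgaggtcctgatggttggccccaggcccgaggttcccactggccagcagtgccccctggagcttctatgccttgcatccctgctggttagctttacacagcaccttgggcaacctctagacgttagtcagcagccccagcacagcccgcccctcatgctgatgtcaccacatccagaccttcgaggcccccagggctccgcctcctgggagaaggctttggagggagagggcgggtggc
Myo7a downstream start: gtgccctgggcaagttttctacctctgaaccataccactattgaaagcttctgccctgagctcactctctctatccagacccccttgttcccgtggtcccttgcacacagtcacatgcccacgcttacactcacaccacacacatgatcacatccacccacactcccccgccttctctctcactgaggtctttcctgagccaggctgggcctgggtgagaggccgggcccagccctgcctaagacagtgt
Ush1c: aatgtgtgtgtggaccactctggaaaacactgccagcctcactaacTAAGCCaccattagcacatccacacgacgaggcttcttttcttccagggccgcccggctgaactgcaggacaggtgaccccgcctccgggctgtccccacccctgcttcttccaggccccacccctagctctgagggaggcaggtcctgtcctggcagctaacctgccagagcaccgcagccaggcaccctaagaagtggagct

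Neither Myo7a window held a match to any of the 3 motifs. The Ush1c window held 1 TAAGCC, on the strand shown, with its first base 204 bases before the start. Among the other members, the Pcdh15 window held 1 TAAGCC on the opposite strand, beginning 59 bases before the start, and the windows of Cdh23, Adgrv1, Whrn and Clrn1 held none of the 3. Of 32851 windows of the same length, 6.25% held TAATCC, 8.20% held TAAGCC and 6.02% held CACGTG. A match describes these letters and is not a binding site, and a window without one says nothing of the factors.

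Myo7a encodes myosin VIIa, the actin motor of the Usher complex. Its only matched probe, A_55_P2059357, gave a scaled signal of 2047 for wild-type, against 579 in Otx2 KI and 168 in Crx KO. The 3 arrays thus stood in a clear order, with wild-type highest and Crx KO lowest. Against wild-type the signal was 3.54-fold lower for Otx2 KI (log2 -1.82, scanner error 0.20) and 12.2-fold lower in Crx KO (log2 -3.61, scanner error 0.21). Among genes well above background on both arrays, at least a 2-fold lower signal was seen for 2.53% of 15809 in Otx2 KI and for 3.43% of 16048 in Crx KO. Myo7a was the 26th lowest of the 16048 genes in Crx KO, and the 135th lowest of 15809 in Otx2 KI. Between the mutant arrays the difference was 3.45-fold, with Otx2 KI higher (log2 1.79, scanner error 0.21). In that comparison 0.677% of 15805 genes stood 2-fold or more above Crx KO. The raw spot read 192 against a local background of 41.0 in Crx KO, so the lowest of the 3 signals was still measured.

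**Figure D1:**
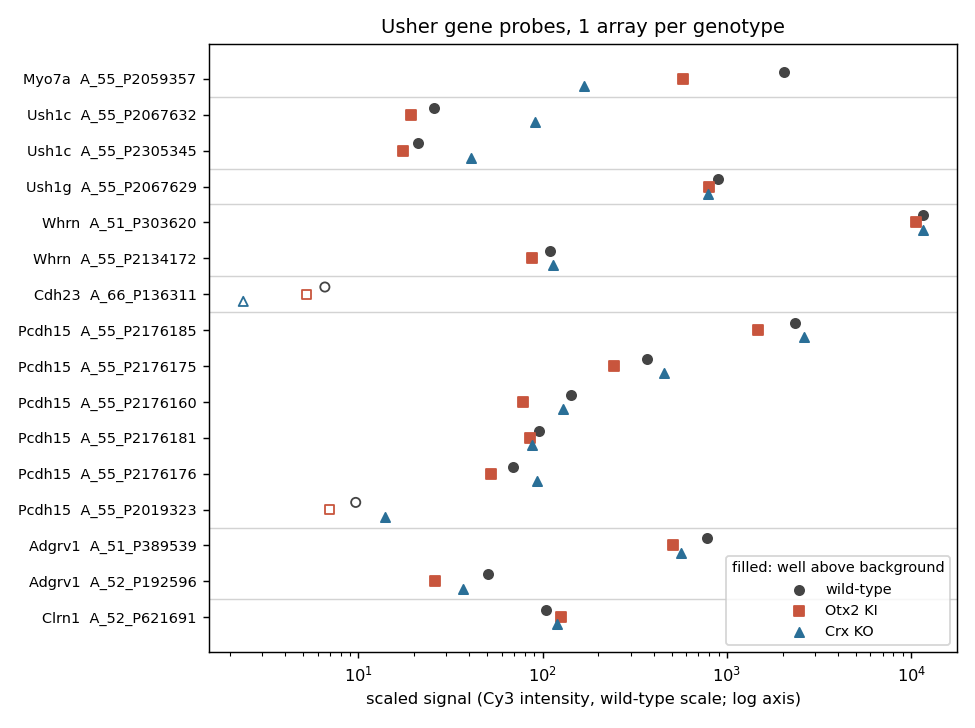
Scaled signal (Cy3 intensity on the wild-type array's scale, log axis) of the 16 probes of the 8 Usher genes, with 1 point per array; filled points were well above background and open points were not. Myo7a lies at 2047 on the wild-type array, 579 on Otx2 KI and 168 on Crx KO, whereas both Ush1c probes are highest in Crx KO, and levels of different probes are not comparable with each other.

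Ush1c encodes harmonin, the scaffold whose PDZ domains hold other Usher proteins together. Its brighter probe, A_55_P2067632, gave a scaled signal of 25.6 for wild-type, against 19.2 in Otx2 KI and 90.7 in Crx KO. It was 3.54-fold higher in Crx KO than in wild-type (log2 1.83, scanner error 0.26), where 1.95% of the 16048 genes stood 2-fold or more above wild-type. In Otx2 KI it was 1.33-fold below wild-type (log2 -0.42, scanner error 0.36), a difference close to the error. Otx2 KI was 4.73-fold lower than Crx KO (log2 -2.24, scanner error 0.32), and 0.645% of 15805 genes stood 2-fold or more below Crx KO in that comparison.

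The other Ush1c probe, A_55_P2305345, ran the same way with smaller differences. It read 21.1 in wild-type, against 17.4 in Otx2 KI and 40.7 in Crx KO. Against wild-type this is log2 0.95 (scanner error 0.27) for Crx KO and -0.28 (scanner error 0.35) for Otx2 KI. Both probes were dim. The raw spot of the brighter probe read 55.0 over a local background of 42.0 in wild-type, 49.0 over 40.0 in Otx2 KI and 108 over 39.0 in Crx KO. With normexp background correction, which shrinks differences between dim spots, the brighter probe gave log2 0.63 for Crx KO against wild-type and -0.73 for Otx2 KI against Crx KO, neither of them past 2-fold.

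The other scaffold members were close to wild-type in both mutant arrays. Ush1g encodes Sans, an ankyrin repeat protein that binds harmonin and myosin VIIa. It read 891 in wild-type, against 800 in Otx2 KI and 789 in Crx KO, or log2 -0.16 and -0.18 (scanner error 0.20 for each). Whrn encodes whirlin, a PDZ scaffold that partners with Adgrv1 at the periciliary membrane. Its brighter probe read 11638 in wild-type, against 10552 in Otx2 KI and 11580 in Crx KO, or log2 -0.14 and -0.01 (scanner error 0.20 for each). These differences were smaller than the scanner error. The dimmer Whrn probe read 110, 87.2 and 114 in the same order, with log2 -0.33 (scanner error 0.21) in Otx2 KI.

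Pcdh15 encodes protocadherin 15, a cadherin of the tip links of hair bundles, and was the member with most probes. Its brightest probe, A_55_P2176185, gave a scaled signal of 2345 for wild-type, against 1464 in Otx2 KI and 2613 in Crx KO. Otx2 KI was the array set apart, at 1.60-fold below wild-type (log2 -0.68, scanner error 0.20), with Crx KO at log2 0.16 (scanner error 0.20). Directly compared, Otx2 KI was 1.78-fold below Crx KO (log2 -0.84, scanner error 0.20), which only 1.03% of the 15805 genes exceeded in that direction.

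The probes of Pcdh15 carry several transcript accessions and were compared with each other. Of the 6 probes, 5 were well above background on all 3 arrays. In Otx2 KI all 5 were below wild-type, from log2 -0.88 to -0.17, and all 5 were below Crx KO, from -0.89 to -0.03. The 5 probes read the same RNA preparations and are not replicates. In Crx KO 3 were above wild-type and 2 below, from -0.15 to 0.43. Probe A_55_P2176181 was the least affected, with all 3 differences smaller than the scanner error of 0.21. It read 95.5 in wild-type, against 85.1 in Otx2 KI and 87.0 in Crx KO. The second brightest, A_55_P2176175, read 369, 244 and 453 in the same order.

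Adgrv1 encodes a very large adhesion receptor of hair bundle ankle links and of the periciliary membrane. Its brighter probe, A_51_P389539, read 779 in wild-type, against 509 in Otx2 KI and 565 in Crx KO. Both mutant arrays were below wild-type, by 1.53-fold in Otx2 KI (log2 -0.61, scanner error 0.20) and 1.38-fold in Crx KO (log2 -0.46, scanner error 0.20). The dimmer probe, A_52_P192596, read 50.7, 26.1 and 36.7 in the same order, or log2 -0.96 (scanner error 0.26) and -0.47 (scanner error 0.23). The mutant arrays differed from each other by log2 -0.15 (scanner error 0.20) on the brighter probe and by -0.49 (scanner error 0.27) on the dimmer.

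Clrn1 encodes clarin 1, a membrane protein with several transmembrane segments, and was the only measured member above wild-type in both mutant arrays. It read 104 in wild-type, against 125 in Otx2 KI and 119 in Crx KO, or log2 0.26 and 0.19 (scanner error 0.21 for each). These are about the size of the scanner error. Cdh23 encodes cadherin 23, the partner of Pcdh15 in the tip link. Its 1 probe read 6.57, 5.21 and 2.37 on wild-type, Otx2 KI and Crx KO, all below the lowest signals counted as well above background, so no fold is given.

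**Figure D2:**
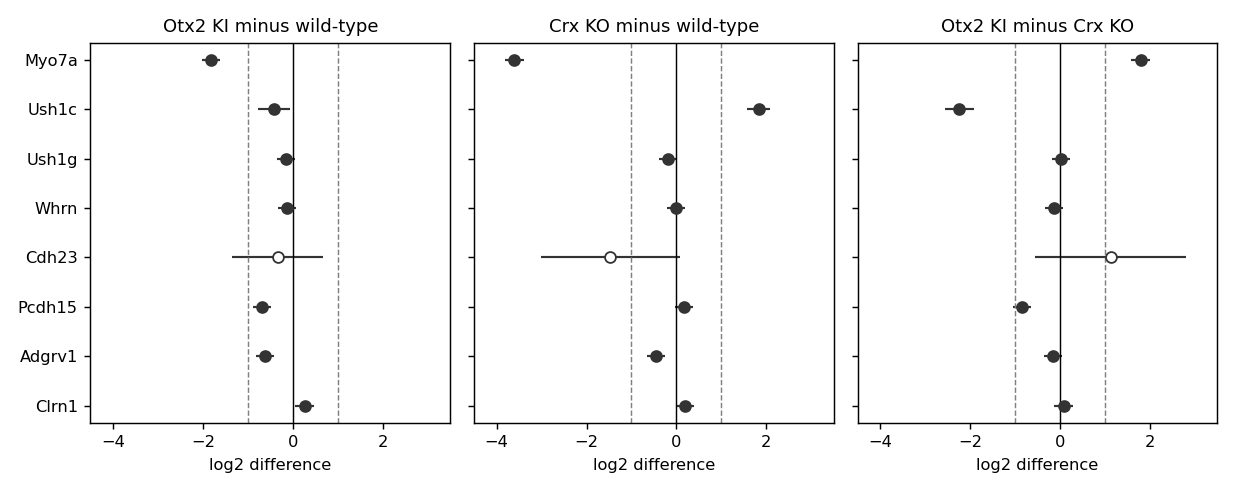
Log2 difference of each Usher gene's brightest probe in the 3 comparisons, with bars for the scanner software's error and dashed lines at 2-fold; Cdh23 is open because it was not well above background. Myo7a lies beyond the lines in all 3 panels and Ush1c in the panels that hold Crx KO, while the other measured members lie within them.

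As a group the members were mixed. Of the 7 measured members, 1 stood 2-fold or more below wild-type in Otx2 KI and 0 above it, beside 2.53% and 1.35% of all genes, with a median log2 difference of -0.42 where that of all 15809 genes was 0.03. That median is the value of the dim Ush1c probe, and with normexp it was -0.12. In Crx KO 1 was lower and 1 higher, beside 3.43% and 1.95% of all genes, with a median of -0.01 for the members and -0.01 for all 16048 genes. Between the mutant arrays, 1 was lower and 1 higher in Otx2 KI, beside 0.645% and 0.677%, with medians of -0.13 and 0.04. At 1.5-fold, a threshold chosen after seeing the data, 3 of 7 were lower in Otx2 KI than in wild-type, namely Myo7a, Pcdh15 and Adgrv1, beside 6.35% of all genes. In the opposite direction it was 0 of 7, beside 3.66%. In Crx KO 1 of 7 was lower and 1 of 7 higher at that threshold, beside 8.24% and 5.02% of all genes. Between the mutant arrays 2 of 7 were lower in Otx2 KI, Ush1c and Pcdh15, beside 2.31%, and 1 of 7 was higher, beside 2.44%. The comparisons with wild-type share its 1 array, so a member's values in them are not independent.

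Myo7a and Ush1c are the 2 members on the chromosome that carries Crx, chromosome 7 in GRCm38.p6, and the other 6 members lie elsewhere. In gene order, 665 genes measured on all 3 arrays lie between Myo7a and Crx and 451 between Ush1c and Crx. Genes past 2-fold between the mutant arrays made up 3.21% of 1279 on that chromosome and 1.16% of 14526 elsewhere. For Crx KO against wild-type the shares were 6.02% and 5.32%, and for Otx2 KI against wild-type 3.19% and 3.94%, where the chromosome of Crx had the lower share. Whether a place on the chromosome of Crx plays a part in these values was not tested.

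The neighbours of both genes were read, a comparison added after seeing the data. On chromosome 7, 3.19% of 1287 measured genes were past 2-fold in Otx2 KI and 6.02% of 1312 in Crx KO. Counts of 0 or 1 in 20 are close to these shares. None of the 20 measured genes nearest to Myo7a, 10 on each side, was past 2-fold in Otx2 KI or Crx KO. Their log2 differences ran from -0.33 to 0.70 in Otx2 KI and from -0.37 to 0.43 in Crx KO. The adjacent Pak1, a kinase gene, read 724, 770 and 775 in wild-type, Otx2 KI and Crx KO, and Capn5, a calpain gene, read 828, 834 and 781. Of the 20 measured genes nearest to Ush1c, 1 was past 2-fold in either mutant array. It was Tph1, which encodes a tryptophan hydroxylase of serotonin synthesis, at 188 in wild-type and 32.9 in both mutant arrays. The inner ear gene Otog, next to Ush1c, read 24.4, 20.9 and 24.2.

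**Figure D3:**
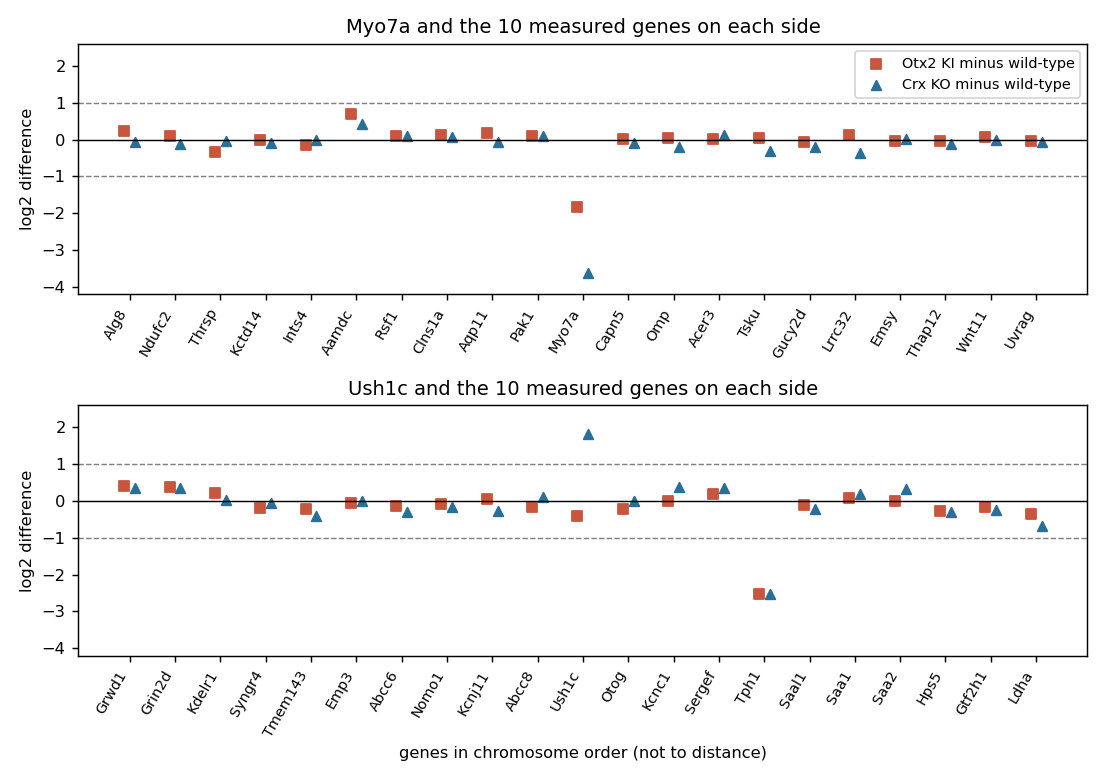
Log2 difference from wild-type of Myo7a, Ush1c and the 10 genes measured on each side of them in chromosome order (horizontal axis, not to distance), for Otx2 KI (squares) and Crx KO (triangles), with dashed lines at 2-fold. Beside Myo7a 0 of 20 neighbours lie past the lines, and beside Ush1c only Tph1 does, at -2.52 in both. Of the measured genes on that chromosome, 3.19% were past 2-fold in Otx2 KI and 6.02% in Crx KO.

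Cell types that could contribute to the Myo7a signal were read from marker lists. Of 14 pigment epithelium and melanocyte markers, 13 were measured in Otx2 KI and wild-type. Of these 2 were lower by 2-fold or more, beside 2.53% of all genes, and the median was -0.77. In Crx KO 7 of 12 were that much lower, beside 3.43% of all genes. The median of the markers there was -1.38, with a range from -2.45 to 0.31. Their summed scaled signal was 40113 in wild-type, against 30514 in Otx2 KI and 24073 in Crx KO. Rlbp1 alone made up 34.5%, 51.6% and 53.5% of these sums. Best1 was not well above background on any array. Lrat, a retinoid enzyme of the pigment epithelium, read 73.5, 34.5 and 13.5, and Pmel, a melanosome matrix protein, 1943, 990 and 496. Rpe65, the visual cycle isomerase of that epithelium, read 865, 507 and 506. Other members of the list were not below wild-type in both: Rrh, which encodes peropsin, read 2345, 2395 and 2903, and Mitf, the melanocyte factor, 551, 516 and 568. Between the mutant arrays 40.3% of all 15805 genes were lower in Otx2 KI, and the median of all genes was 0.04. Of the 12 measured markers 10 were higher in Otx2 KI in that comparison and 2 lower, with a median of 0.41. Myo7a was also higher in Otx2 KI there (log2 1.79). The difference of Myo7a in Crx KO (log2 -3.61) was larger than that of any marker measured in this list. The largest there was that of Lrat (log2 -2.45), whose 13.5 lay close to 9.94, the lowest signal well above background in Crx KO. Lrat was too dim in wild-type to fall as far as Myo7a and still be measured. The part of these cells in the Myo7a values was not tested.

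The rod and cone markers were lower still. Of 10 markers 9 were lower by 2-fold or more in each mutant array, beside 2.53% and 3.43% of all genes. The markers had medians of -4.48 in Otx2 KI and -4.04 in Crx KO. Their summed scaled signal was 431399 in wild-type, against 44735 in Otx2 KI and 57694 in Crx KO, with Sag the largest part of both mutant sums. Between the mutant arrays 8 of the 10 were lower in Otx2 KI, beside 40.3% of all 15805 genes. The 2 lower in Crx KO were Pde6h (2980 in Otx2 KI and 1362 in Crx KO) and Opn1mw (71.7 and 53.5). By 2-fold or more, 3 were lower in Otx2 KI and 1 higher, beside 0.645% and 0.677% of all genes. Muller glia markers had medians of 0.11 and 0.26, with 0 of 10 past 2-fold, and inner retina markers had medians of 0.00 and -0.01, with 0 of 13 past 2-fold. By 2-fold or more, 2.53% and 3.43% of all genes were lower and 1.35% and 1.95% higher. At these shares a list of such length would hold few such genes or none. Rlbp1 belongs to both the pigment epithelium and the Muller glia list.

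Genes that act with Usher proteins, or whose mutation gives a related disease, mostly lay near wild-type. Of 15 measured, 2 were at least 2-fold lower for Otx2 KI and 0 higher, beside 2.53% and 1.35% of all genes. The median there was 0.06. In Crx KO 1 was lower and 1 higher, beside 3.43% and 1.95% of all genes, with a median of 0.01. Cep250, a centrosome linker gene of an atypical Usher disease, read 1442, 697 and 661 in wild-type, Otx2 KI and Crx KO (log2 -1.05 and -1.13, scanner error 0.20 for each). Lca5, which encodes the ciliary protein lebercilin, read 1970, 983 and 1064 (log2 -1.0 and -0.89). Hars, the histidyl-tRNA synthetase gene, had Crx KO as the array set apart, at 704, 790 and 1806 (log2 0.17 and 1.36). Arsg, a lysosomal sulfatase gene, read 1536, 1604 and 2540. Cib2, a calcium-binding partner of the hair bundle channel, read 4135, 4920 and 4679, and Pdzd7, a scaffold related to harmonin and whirlin, read 40.1, 33.3 and 35.5. These stayed within 2-fold.

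Genes listed for the calyceal process and the base of the outer segment were mostly below wild-type. The arrays do not show whether these mouse retinas had calyceal processes. Of 8 measured in Otx2 KI 7 were below 0 and 3 were lower by 2-fold or more, and of 9 in Crx KO all 9 were below 0 and 4 were lower, with a median of -0.66 in each. Of all measured genes, 44.7% were below 0 in Otx2 KI and 51.5% in Crx KO. The shares lower by 2-fold or more were 2.53% and 3.43%. Rp1, a microtubule protein of the outer segment, read 40105, 19925 and 19044 in wild-type, Otx2 KI and Crx KO. Prph2, which shapes the disc rim, read 180326, 73106 and 82606. Cdhr1, a cadherin at the outer segment base, was less far below wild-type, at 37189, 28547 and 24209. Espn, the actin bundler espin, read 1462, 1657 and 1284. The actin bundler Fscn2 was at 1088 in wild-type and 11.0 for Crx KO. In Otx2 KI its probe was dim, at least 87.7-fold below wild-type, and it is not among the 8.

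Hair bundle and related inner ear genes were read because the members act in hair bundles. Not all of them encode parts of the Usher complexes. Of 19 on the array 11 were measured in each mutant against wild-type, and 6 were not well above background on any array. The medians were 0.09 in Otx2 KI and -0.07 in Crx KO. By 2-fold or more, 2.53% and 3.43% of all genes were lower and 1.35% and 1.95% higher. Of the 11, 1 was that much lower in each mutant array and 0 higher. That gene was Gpsm2, a regulator of spindle and hair bundle polarity, at 3048, 535 and 586 in wild-type, Otx2 KI and Crx KO. Myo15, another unconventional myosin of stereocilia, read 91.6, 54.1 and 51.4. Tecta, which encodes a tectorial membrane protein, was measured in Crx KO alone, at a scaled signal of 514, which is at least 50.6-fold above wild-type. Of the 8 hair cell identity markers, 4 were not well above background on any array, among them Atoh1, the factor that specifies hair cells. The other 4 were within 2-fold.

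**Figure D4:**
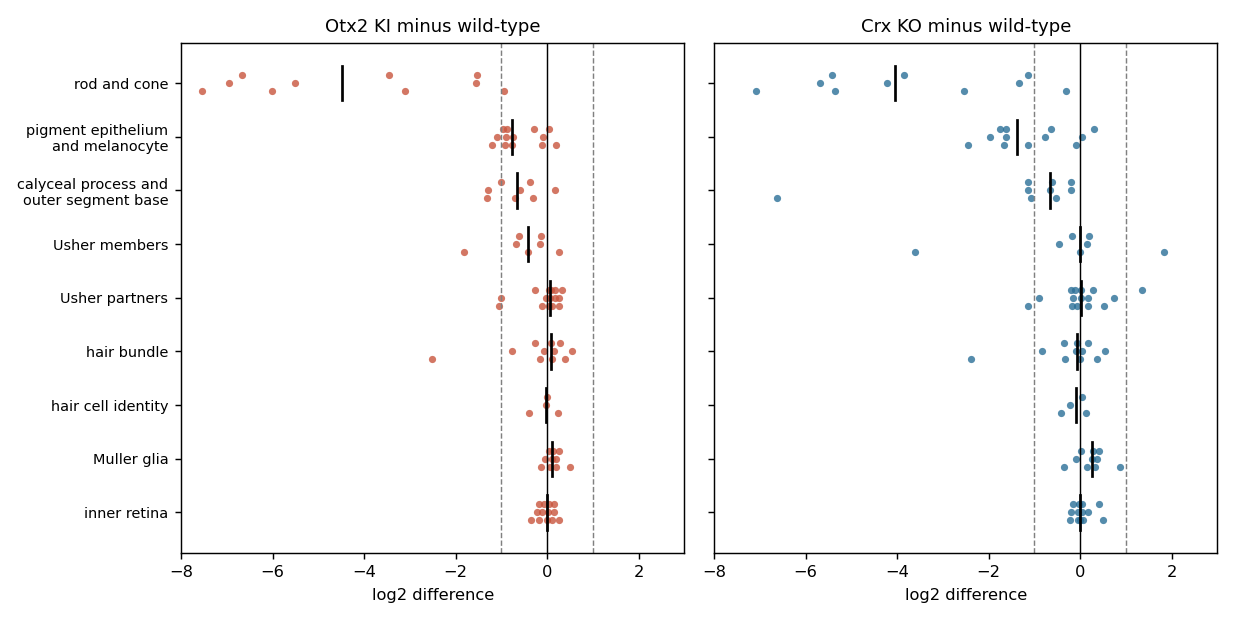
Log2 difference from wild-type of each measured gene (points) of the Usher members and 8 other gene lists, with the median as a black bar and dashed lines at 2-fold, for Otx2 KI (left) and Crx KO (right). The Usher members have medians of -0.42 and -0.01, beside -4.48 and -4.04 for the rod and cone markers and 0.00 and -0.01 for the inner retina markers.

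Genes with the most similar pattern were found by distance, over the log2 differences of Otx2 KI and of Crx KO from wild-type, among 15742 genes measured on all 3 arrays. Myo7a, the 26th lowest of 16048 genes in Crx KO, had 0 genes within 0.5 of it, at values that few genes reach. Its nearest was the chemokine gene Ccl9, 0.821 away, with log2 -2.63 in Otx2 KI and -3.44 in Crx KO. Mns1 followed at 0.843, with -1.38 and -2.89, and Cltrn, which encodes collectrin, at 0.963, with -2.13 and -2.70. Ush1c had 15 genes within 0.5. Its nearest were Cd84 at 0.217, the complement protease gene Masp2 at 0.223 and Cuedc1 at 0.241, with log2 values of -0.35 and 1.62, -0.22 and 1.71, and -0.29 and 1.62.

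How the values of the most affected members depended on scaling and background correction was also plotted. Myo7a was past 2-fold in each setting shown, and Ush1c in Crx KO was past 2-fold in each except normexp. For Myo7a, with its only probe, averaging and the deposited table, a rescaled copy of the same signal, could only repeat the main value.

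**Figure D5:**
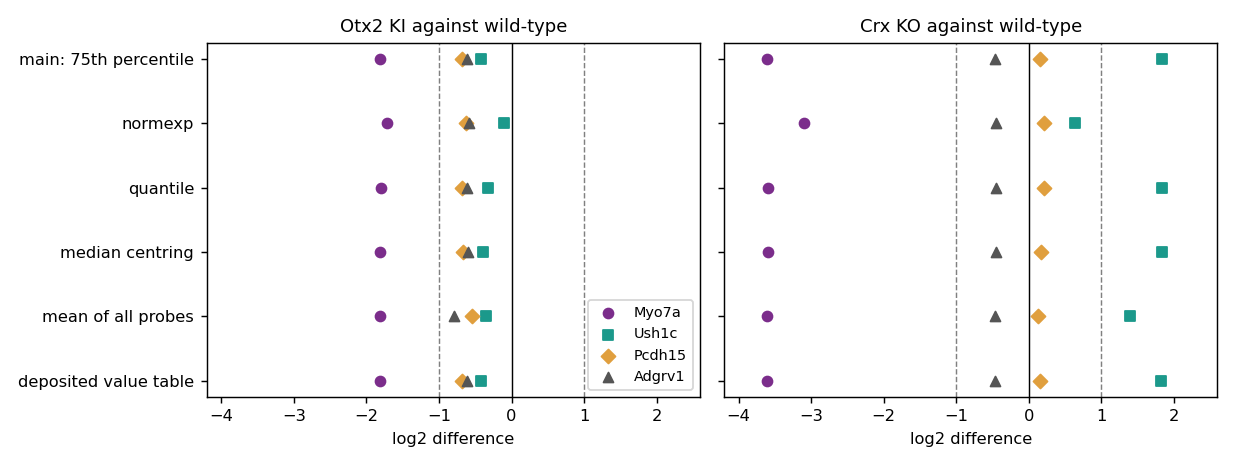
Log2 difference from wild-type of Myo7a, Ush1c, Pcdh15 and Adgrv1 under the main setting and 5 alternatives (vertical axis), for Otx2 KI (left) and Crx KO (right), with dashed lines at 2-fold. Myo7a in Crx KO moves from -3.61 to -3.10 with normexp, and Ush1c in Crx KO moves from 1.83 to 0.63.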

How the data were processed

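Per the labels' protocols, retinal RNA was purified with QIAzol, amplified and labelled with Cy3. The deposited scanner files hold spot intensity values from Agilent Feature Extraction 12.0.3.1 on a design that refers to mm9, per the file headers. Their processed signal, background-subtracted by that software, was used. The authors' deposited value table holds this intensity times 1 constant per array (2.49 for the wild-type array, 2.54 for that of Otx2 KI and 2.61 for that of Crx KO), on a linear, uncentred scale. No source used here states how the constants were set.

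Control spots and outlier spots were left out, and spots of the same probe were averaged. The log2 signal was reduced by each array's 75th percentile. Accessions without versions were matched to RefSeq genes of GRCm38.p6 (28331 probes), used for names and gene order. The brightest probe represented a gene, which counted as measured if both arrays of a comparison had it well above background. A gene above background on 1 array is given as at least a fold over the higher of its own dim signal and the lowest signal well above background there. No test was possible, so genes were called at 2-fold. The genes named were all members, up to 4 genes per list with the largest differences, the 3 nearest patterns, and genes named as neighbours or as textbook partners or markers after their values were seen. The members and lists were chosen with earlier results of these data known. Alternatives were normexp (limma 3.58.1, offset 50, on median spot and background signals), quantile and median scaling, averaged probes, no filter on dim probes and the deposited table. The steps were run in Python 3.11.15. Scaling, choice of the brightest probe and the differences were tested on simulated data, with shifts well past 2-fold in probes above background. The other steps and dim probes were not.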

Additional observations from a re-analysis of the deposited data

How the results depend on the processing

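Each difference rests on 1 array per genotype, and dim probes are the least certain, above all Ush1c and Cdh23. Over 6 alternatives, 120 of 126 values of single members moved by less than the scanner error. Much of this was fixed in advance. The unfiltered setting and the deposited table, a rescaled copy of the same signal, give back the main values of measured members. Averaging cannot move a member with a single probe. All 6 moves came with normexp or averaged probes. No member value past 2-fold changed sign. Among values near 0, 4 changed sign, of Whrn and Ush1g, none larger than 0.10. Normexp background correction moved Myo7a in Crx KO from log2 -3.61 to -3.10, Ush1c in Crx KO from 1.83 to 0.63, and, for Otx2 KI against Crx KO, Myo7a from 1.79 to 1.39 and Ush1c from -2.24 to -0.73. With normexp, 0 members were higher by 2-fold or more in Crx KO than in wild-type, 0 were lower in Otx2 KI when set against Crx KO, and the median for Otx2 KI against wild-type was -0.12. Averaging probes gave Ush1c 1.39 in Crx KO and -1.73 for Otx2 KI against Crx KO. Without the filter on dim probes, 2 members were lower in Crx KO than in wild-type and 2 were higher in Otx2 KI when set against Crx KO, because Cdh23 was then counted. At 1.5-fold, chosen after seeing the data, 3 members were lower in Otx2 KI than in wild-type and 2 were lower than in Crx KO. Quantile scaling, median scaling and the deposited value table moved no count of members. No scaling moved the median of all genes by over 0.1. No paired analysis was possible because each genotype has 1 array.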
